A study of Mus musculus with 2 samples.

Results

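The vomeronasal type 2 receptor genes were taken as the protein-coding autosomal genes of GRCm38 whose symbol is Vmn2r followed by a number. By that rule there were 122 genes. One of them, Vmn2r122, is listed with the coordinates of an unplaced scaffold and was not analysed here, which left 121 members on 8 chromosomes, of 20558 autosomal protein-coding genes with placed coordinates. They carried H3K9me3 peaks less often than genes at large. The stretches between neighbouring members held peaks, and tall ones among them, at densities at or above those of whole autosomes. Beside other gaps between genes of like length, only the longest gaps had a density of all peaks outside the interval. For tall peaks this was seen at no length.

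The series holds 1 H3K9me3 ChIP library and 1 control library, with no replicate of either. Both came from intestinal stem cells that were GFP high and CD24 low, sorted by FACS from 12 pooled mice of the genotype Lgr5-EGFP-IRES-creERT2;setdb1fl/fl, strain C57BL/6, at 8 weeks after birth. In this genotype the Lgr5 locus drives GFP and a tamoxifen-inducible Cre, and Setdb1, the gene of an H3K9 methyltransferase, is flanked by loxP sites in ChIP and control alike. Whether the floxed Setdb1 had been removed is stated by no label. The control is named input in its title and IgG in its antibody label, and it was seen only through its tags in the peaks of the ChIP library. No comparison between samples could be tested, and genes, which are not replicates, were given no p-value. Intervals are at 95% and cover counting error only, exact Clopper-Pearson for shares and exact Poisson for tags and densities.

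Vomeronasal type 2 receptors are G protein-coupled receptors of class C, with a long extracellular part that binds peptides and proteins such as pheromones. They are made in sensory neurons of the basal layer of the vomeronasal organ, where they signal through the G protein subunit Gnao1 and the channel Trpc2. Most neurons use a single receptor of the families A, B or D together with receptors of family C, which comprises Vmn2r1 to Vmn2r7. The genes lie in tandem clusters that grew by duplication, and neighbours can be nearly identical. H3K9me3 is the histone mark of heterochromatin and is laid down over repeats, retroelements and some silent gene clusters. In olfactory sensory neurons it is known to cover the receptor genes that are not chosen.

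The starts of these genes show both how alike the members are and where the mark lay, and 5 of them are given here as the 250 bases before an annotated start, read 5′ to 3′ on the gene's strand, from RefSeq on GRCm38.p6, with CG pairs in capitals. The Vmn2r29 gene has 2 annotated starts. The inner start, chr7:7247329-7247578 on the minus strand, resembles those of its neighbours, and the outer start, chr7:7278290-7278539 on the minus strand, does not. Vmn2r35 (chr7:7819868-7820117), Vmn2r38 (chr7:9097766-9098015) and Vmn2r44 (chr7:8383239-8383488), all on the minus strand, are shown as members of the same cluster.
Vmn2r29, outer start: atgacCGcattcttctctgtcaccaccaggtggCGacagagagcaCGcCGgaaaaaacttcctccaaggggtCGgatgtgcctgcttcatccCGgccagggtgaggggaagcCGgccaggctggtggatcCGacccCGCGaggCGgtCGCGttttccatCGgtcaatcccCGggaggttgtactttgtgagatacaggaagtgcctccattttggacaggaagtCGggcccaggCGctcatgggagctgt
Vmn2r29, inner start: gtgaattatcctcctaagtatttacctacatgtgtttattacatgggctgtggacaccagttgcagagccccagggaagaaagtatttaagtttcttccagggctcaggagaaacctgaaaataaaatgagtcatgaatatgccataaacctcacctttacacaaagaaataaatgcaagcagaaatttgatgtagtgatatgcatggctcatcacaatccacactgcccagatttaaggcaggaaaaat
Vmn2r35: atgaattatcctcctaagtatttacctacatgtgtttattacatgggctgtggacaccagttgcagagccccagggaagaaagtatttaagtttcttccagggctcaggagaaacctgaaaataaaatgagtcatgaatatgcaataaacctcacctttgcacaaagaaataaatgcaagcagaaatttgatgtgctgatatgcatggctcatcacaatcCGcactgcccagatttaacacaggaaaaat
Vmn2r38: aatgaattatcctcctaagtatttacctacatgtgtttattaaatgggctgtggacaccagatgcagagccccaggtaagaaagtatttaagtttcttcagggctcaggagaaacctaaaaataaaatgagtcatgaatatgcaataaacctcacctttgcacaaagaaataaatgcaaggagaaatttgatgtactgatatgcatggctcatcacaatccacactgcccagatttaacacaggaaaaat
Vmn2r44: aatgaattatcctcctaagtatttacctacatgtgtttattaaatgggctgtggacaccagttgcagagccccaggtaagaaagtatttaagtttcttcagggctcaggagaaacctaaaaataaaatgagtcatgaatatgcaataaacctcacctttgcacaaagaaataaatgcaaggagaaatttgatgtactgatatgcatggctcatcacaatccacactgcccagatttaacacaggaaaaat

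The outer start of Vmn2r29 held 17 CG pairs in its 250 bases, and the tallest peak of all members lay over it. The inner start of the same gene held 0 CG pairs and had no peak. It was 96.8% identical to the sequence of Vmn2r35 and 49.6% identical to the outer one. The sequences of Vmn2r38 and Vmn2r44 differed at 1 of 250 positions, so short reads from such stretches can be shared between genes or dropped. How the authors treated reads with several matches is not given in the sources used here.

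Low CG content was common to the members. A start window of 300 bp, reaching 250 bp before and 50 bp after an annotated start, was given for 115 members, and these are described by 1 window each, the inner one for Vmn2r29. The median member window held 1 CG pair, against 7 over the 31396 autosomal RefSeq windows, and no member window held more than 4. No CG pair at all was found in 33 of the 115 (28.7%), against 5.25% of all windows. The GC content had a median of 38% in members and 53% in all windows. The motif TATAAA, searched on both strands with its reverse complement TTTATA, was found in 27 windows (23.5%), against 13.6% of all windows of that length, which is a description and not a site. The outer window of Vmn2r29 held 23 CG pairs.

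Peaks rarely lay at these starts. Counting both windows of Vmn2r29, 1 of 115 members had a peak over a start window and 3 had one within 2 kb of it, namely Vmn2r29, Vmn2r44 and Vmn2r104. Over all autosomal windows 13.0% had a peak and 25% had one within 2 kb. The peak next to Vmn2r44 began 1.23 kb upstream of the gene and held 30.5 tags against 1.5 control tags. The peak next to Vmn2r104 began 1.86 kb upstream and held 22.5 tags against 2 control tags.

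The start windows also give a measure of how alike the copies are. Identity to the most alike other member had a median of 92.3% and ran from 63.3% to 100%, and 43 of 115 reached 95%. A run of 50 bp shared with another member was found in 72 windows (62.6%). In the cluster of Vmn2r29 to Vmn2r52 all 22 windows shared such a run and the median identity was 99%. In the cluster of Vmn2r90 to Vmn2r110 the same held for 4 of 22, with a median of 85.7%. Members with a peak had a median identity of 94.5% (30 members) and those without one 92% (85 members), and a shared run was found in 20 of the 30 and in 52 of the 85. A peak was found at 2 of 8 members with an identity under 70%, 9 of 39 between 70% and 90%, and 19 of 68 at 90% or more. The windows cover the starts alone, and the part of read sharing in these counts was not tested.

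Of the 121 members, 31 had a peak over the gene or the 5 kb on either side of it (25.6%, 18.1 to 34.4). The same rule gave a peak to 56.8% of all autosomal protein-coding genes, and to 60.4% of the genes within the length range of the members, 8.397 to 142.7 kb. Of the 31, 24 had 1 peak, 5 had 2 peaks, and Vmn2r29 and Vmn2r35 had 3 and 4. A peak touched the gene itself in 20 members, against 47.6% of all protein-coding genes, and 11 members had peaks in the flanks only. Neighbouring members share flanks and are not independent, so intervals that treat them as independent are too narrow.

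The shares stayed below those of other genes at each length. With a span under 20 kb 8 of 48 members had a peak (16.7%), against 48.4% of all protein-coding genes of that length. From 20 to 35 kb it was 14 of 47 (29.8%) against 57.6%, and from 35 kb 9 of 26 (34.6%) against 70.9%. Members without a peak lay a median of 21.7 kb from the nearest one, from 5.5 to 253 kb, and Vmn2r101 on chromosome 17 lay farthest.

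The 40 distinct peaks at members were mostly of middle height and less often weak than peaks at large. The deposited normalized tag count, ChIP tags scaled to a fixed library total, had a median of 24.35 and a highest value of 332.6. In tags the median was 23.25 and the range 10 to 317.5, and the deposited fold of these peaks had a median of 9.98, from 5.86 to 45.84. In 9 of the 40 the control stood at its lowest value, 0.5 tag, and a fold there depends on that floor. Peaks were called tall when they were in the top 10% of the whole list, at 50.8 or more, weak when below its median of 17.3, and middle in between. The count is a total over the peak, so height here means tags per peak and not tags per kb. By these classes 6 of the 40 were tall, 24 middle and 10 weak, and 1 middle peak lay within reach of both Vmn2r24 and Vmn2r25. Of the 38 peaks centred in a member or within 5 kb of it, 26.3% were weak (13.4 to 43.1), against 49.3% of autosomal peaks and 53.8% of those in protein-coding genes. Peaks that touched a gene lay along all of it, 13 of 29 in the part nearer the start and 16 in the part nearer the end. Of the flanking ones at members of known strand, 3 lay upstream and 8 downstream, with the shared peak counted for each gene.

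A tall peak was found at 6 members (4.96%, 1.84 to 10.48), against 6.68% of all protein-coding genes and 5.52% of those in the length range. In 5 of the 6 it touched the gene itself, which is 4.13% of the 121 members, against 5.41% of all protein-coding genes. These shares could not be told apart at this number of members. All 6 are receptors of families A, B or D.

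The tallest peak lay at Vmn2r29 on chromosome 7, chr7:7277238-7278693, over the CG-rich outer start printed above. It held 317.5 tags (284 to 354), for a normalized tag count of 332.6. The control held 36.5 tags there, the most of any peak in the clusters, so that the fold over control was 5.95, among the lowest of the 40 peaks. The other 2 peaks of the gene lay inside it, with 30 and 28 tags against 3.5 and 2 in the control.

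Vmn2r35, in the same cluster, had 4 peaks, more than any other member. Its tallest, chr7:7794077-7797667, was 3590 bp wide and held 100.5 tags (81.8 to 122) against 6.5 control tags, a fold of 10.58. The other 3 held 37, 30.5 and 11 tags. All 4 lay within the gene, from 25.7% to 71.2% of the way along it, and the start printed above had none. Its near relative Vmn2r38 had 1 peak, chr7:9080536-9082289, with 72 tags (56.3 to 90.7) against 2 control tags, a fold of 24.63. It also lay 71.2% of the way along the gene.

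Vmn2r60, on chromosome 7 in the cluster of Vmn2r57 to Vmn2r126, had a tall and a weak peak. The tall one, chr7:42170441-42172693, held 72 tags (56.3 to 90.7) against 3 in the control, a fold of 16.42, and the weak one held 10 tags (4.8 to 18.4). Vmn2r27 on chromosome 6 had 1 peak in the middle of the gene, chr6:124211342-124212810, with 63 tags (48.4 to 80.6) against 1 control tag, a fold of 43.11. Vmn2r112 on chromosome 17 had its peak 3.67 kb beyond the end of the gene, chr17:22622803-22624422, with 49.5 tags (36.7 to 65.3) against 2.5 in the control. That peak stood just inside the tall class at 51.9, and the next member below it, Vmn2r46 at 46.6, stood just outside.

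**Figure D1:**
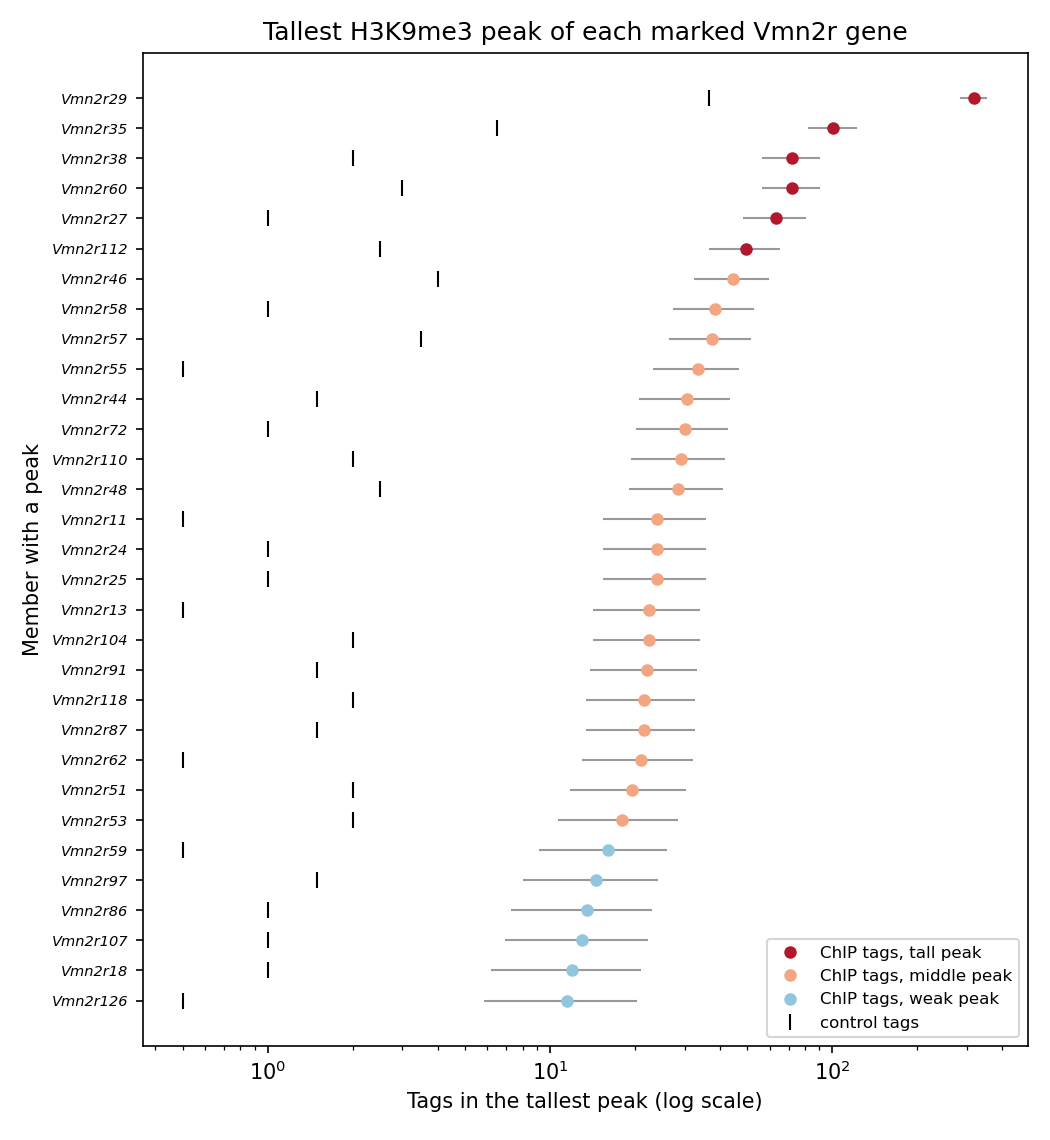
Tags in the tallest H3K9me3 peak of each of the 31 members with a peak (points, log scale, exact Poisson 95% interval) and control tags in the same peak (ticks), with tall, middle and weak peaks in separate colours. Vmn2r29 stands at 317.5 tags with 36.5 control tags, and the other 30 members lie between 11.5 and 100.5 tags.

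The 5 members with 2 peaks were Vmn2r24, Vmn2r60, Vmn2r87, Vmn2r91 and Vmn2r97. Without Vmn2r60 their peaks held few tags. Vmn2r24 had 11.5 tags in the gene and 24 in the flank it shares with Vmn2r25. Vmn2r87 had peaks of 21.5 and 19.5 tags, and Vmn2r91 had peaks of 21 and 22 tags. Vmn2r97 had 2 weak peaks, with 13 and 14.5 tags, whose intervals reached from 6.92 to 24.1. Peaks of this size rest on few tags, and 6 members, among them Vmn2r97 and Vmn2r107, had weak peaks only. Single peaks were also found at Vmn2r11, with 24 tags against 0.5 in the control, and at Vmn2r107, with 13 tags against 1.

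By chromosome, 16 of 52 members had a peak on chromosome 7 (30.8%, 18.7 to 45.1), 7 of 31 on chromosome 17 (22.6%, 9.59 to 41.1), 3 of 11 on chromosome 5, 3 of 9 on chromosome 6 and 2 of 8 on chromosome 10. None was found at the 7 members of chromosome 3, the 2 of chromosome 14 or the 1 of chromosome 4. All of these intervals overlap. Over all autosomal protein-coding genes the share was 56.8%. That lies above the intervals of chromosomes 7, 17 and 3 and inside those of chromosomes 4, 5, 6, 10 and 14. Shares of other genes by chromosome were not computed. The 7 genes of chromosome 3 are the whole of family C, the receptors that most basal neurons share, and 0 of 7 allows a share of up to 41%. In the other families 31 of 114 members had a peak (27.2%, 19.3 to 36.3), an interval also below the 56.8% of all genes.

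The gaps between members held peaks at a higher density than the members. Members at most 1 Mb apart on a chromosome were joined to 12 clusters, with 116 members in 13.41 Mb, and 5 members stood alone. The clusters held 103 gaps between neighbouring members, 10.34 Mb in all, while the 121 member spans summed to 3.186 Mb. A peak was given to a gap or a span by its centre. The gaps held 187 peaks, 18.1 per Mb (15.6 to 20.9), and the member spans 29, 9.1 per Mb (6.1 to 13.1). These intervals do not overlap. All autosomes had 15.4 peaks per Mb, protein-coding genes 18.6 and the stretches outside them 13.3. Within the clusters, member spans took up 22.9% of the length and had 27 of the 214 peaks (12.6%).

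Tall peaks were densest in the gaps too. The gaps held 27 of them, 2.61 per Mb (1.72 to 3.8), against 1.51 per Mb on all autosomes, 1.19 in protein-coding genes and 1.73 outside them. For the stretches outside genes that value lies just inside the interval's lower end. In member spans there were 5 tall peaks, 1.57 per Mb (0.51 to 3.66), an interval that overlaps that of the gaps. Weak peaks had 6.77 per Mb in the gaps (5.28 to 8.55), 2.51 in the spans (1.08 to 4.95) and 7.59 on all autosomes. In the spans the densities of weak peaks thus lay below the autosomes and those of tall peaks could not be told from them.

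Of the 103 gaps, 68 had a peak (66%, 56 to 75.1), against 43.6% of 12217 other gaps between neighbouring protein-coding genes of the same length range. A tall peak was found in 20 gaps (19.4%), against 8.73%. The gaps of members are long, with a median of 61.65 kb, so the comparison was also made by length. In gaps of up to 50 kb 17 of 39 had a peak (43.6%, against 29% of other gaps), from 50 to 150 kb 35 of 48 (72.9%, against 66.7%), and from 150 to 550 kb all 16 (against 90%). The density in the longest class was 18.4 peaks per Mb (14.8 to 22.5), against 13.5 in other gaps of that length, and for tall peaks it was 2.97 (1.66 to 4.89), against 1.82. Up to 50 kb the density was 18.2 peaks per Mb (11.3 to 27.9), against 20. From 50 to 150 kb it was 17.7 (13.9 to 22.2), against 18. In these 2 classes the intervals included the density of other gaps, for tall peaks too. A density of all peaks outside the interval was thus seen in the longest class alone, and for tall peaks in no class.

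Most peaks in the gaps lay in no annotated gene. Of the 187, 149 were centred in no annotated feature (79.7%), 10 in other protein-coding genes, 6 in Vmn2r pseudogenes and 22 in other features. For the tall ones the count in no feature was 24 of 27. Repeat annotation was not used here. The gaps also hold 83 Vmn2r pseudogenes and 43 other protein-coding genes, among them 7 zinc finger genes and 15 olfactory receptor genes. Of the 7 zinc finger genes 2 had a peak (28.6%, 3.67 to 71). That interval includes the 56.8% of all protein-coding genes.

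The gap from Vmn2r61 to Vmn2r62 on chromosome 7, 463.7 kb long, held 14 peaks, the most of any gap, and 3 of them were tall. It contains the zinc finger genes Zfp141, Zfp977, Zfp976 and Zfp975. Its tallest peaks, chr7:42394817-42398899 and chr7:42521157-42523646, held 133.5 tags each (112 to 158), against 4 and 8 control tags. The gaps from Vmn2r96 to Vmn2r97 (316.2 kb), from Vmn2r37 to Vmn2r46 (531 kb) and from Vmn2r90 to Vmn2r124 (315.3 kb) followed with 8, 7 and 7 peaks. Of these, 1 peak between Vmn2r37 and Vmn2r46 was tall, and between Vmn2r90 and Vmn2r124 6 of 7 were weak. Then came 7 gaps with 6 peaks each, of which the gap from Vmn2r112 to Vmn2r113 had 3 tall ones. At the other end, the gap from Vmn2r99 to Vmn2r100, 110.2 kb long, was the longest of 35 with no peak.

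The tallest gap peak lay between Vmn2r93 and Vmn2r95 on chromosome 17, chr17:18385652-18389596, 34.5 kb from Vmn2r95. It held 142 tags (120 to 167) against 4 control tags, a fold of 24.29. Next came the pair between Vmn2r61 and Vmn2r62, the peak chr7:85453794-85457562 between Vmn2r69 and Vmn2r70 with 133 tags, and the peak chr7:42884493-42888457 between Vmn2r62 and Vmn2r63 with 124 tags. Each of these 5 was wider than 2 kb and held more tags than the tallest peak of any member but Vmn2r29. Tags per kb of peak were not compared.

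**Figure D2:**
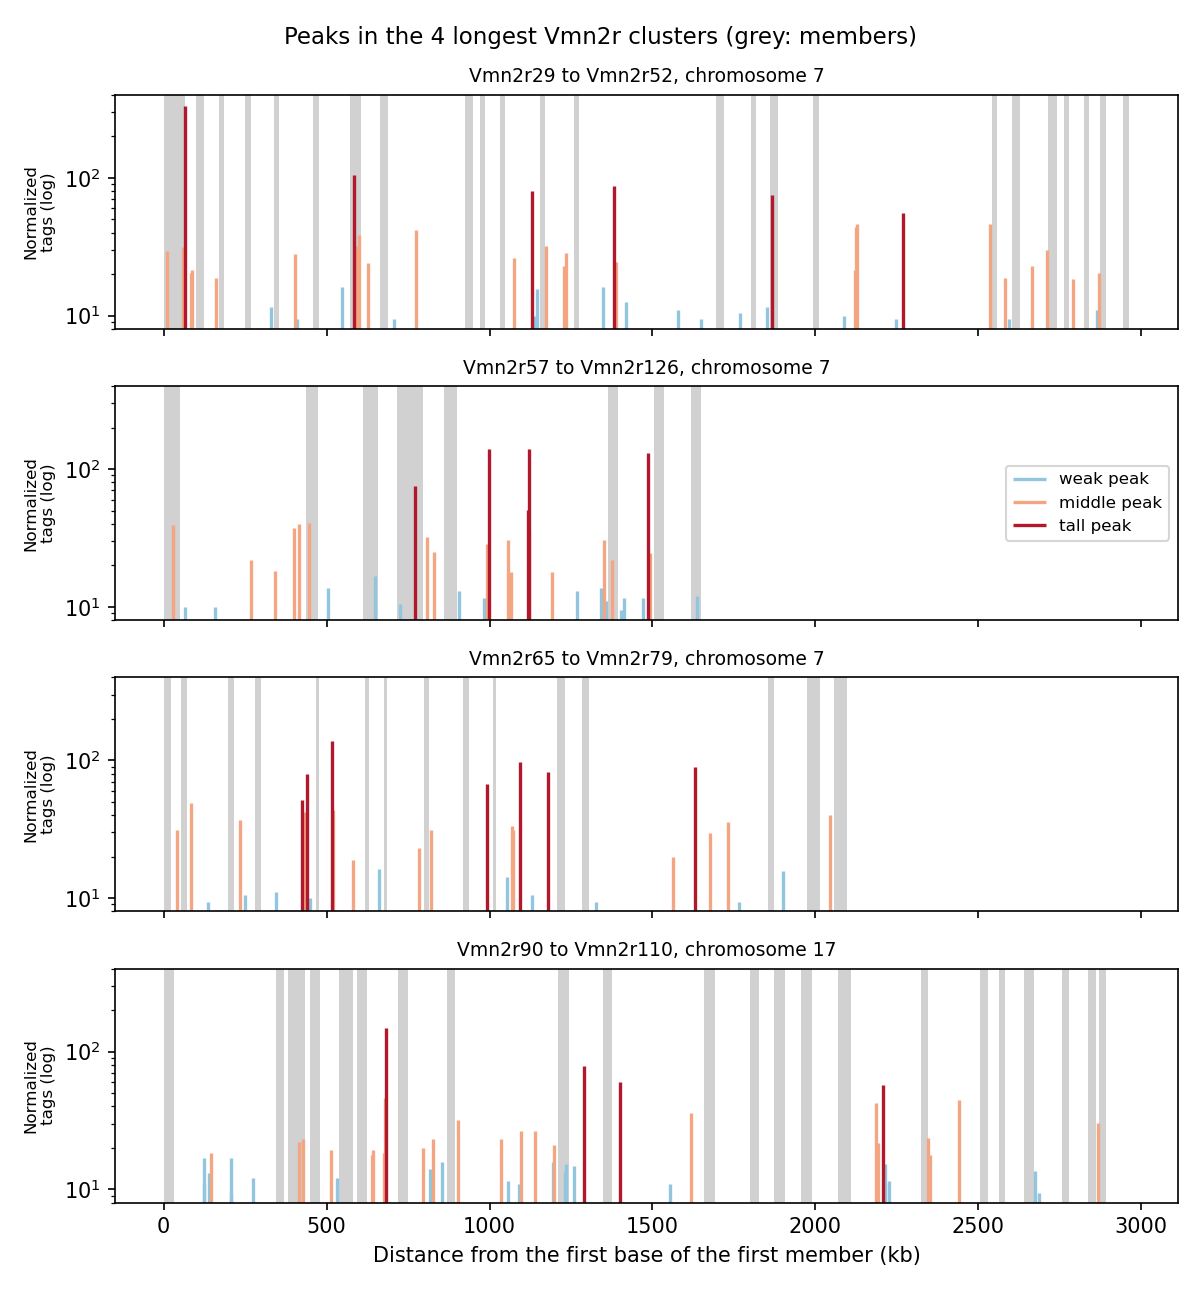
Normalized tag count (log scale) of every peak centred in the 4 longest clusters against the distance from the first base of the first member in kb, with members as grey bars and peaks coloured as tall, middle or weak. Of the 22 tall peaks in these 4 clusters, 4 lie in members (Vmn2r29, Vmn2r35, Vmn2r38 and Vmn2r60) and the others in the white gaps.

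The clusters could not be told apart in their peaks per Mb at this depth, and short clusters had wide intervals. The 4 longest had 15.9 (Vmn2r29 to Vmn2r52, 47 peaks), 16.2 (Vmn2r90 to Vmn2r110, 47 peaks), 14.8 (Vmn2r65 to Vmn2r79, 31 peaks) and 21.2 (Vmn2r57 to Vmn2r126, 35 peaks), with intervals that overlap. The lowest density, 10.9 (4.39 to 22.5), was that of family C on chromosome 3, whose 7 peaks all lay between members. For the gaps alone the densities were 17.5 peaks per Mb on chromosome 7 (14.2 to 21.4) and 18.8 on chromosome 17 (14.2 to 24.3). The gaps of chromosomes 3, 5, 6, 10 and 14 held 1 to 10 peaks each, with wider intervals that include these values.

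Clusters with many marked gaps did not always have many marked members. In the cluster of Vmn2r65 to Vmn2r79, 13 of 14 gaps had a peak and 7 peaks were tall, yet only Vmn2r72 of its 15 members had a peak, 4.82 kb upstream of the gene. In the cluster of Vmn2r57 to Vmn2r126 5 of 7 gaps and 6 of 8 members had one. In that of Vmn2r53 to Vmn2r56 0 of 3 gaps had a peak and 2 of 4 members did, with Vmn2r55 the taller at 33.5 tags. In that of Vmn2r90 to Vmn2r110 11 of 21 gaps and 5 of 22 members had one. Over all autosomal protein-coding genes 56.8% had a peak. Lengths differ between these clusters, and a longer stretch can hold more peaks. The 3 gaps of Vmn2r53 to Vmn2r56 were 8.688, 15.57 and 8.868 kb long, beside members of 20.9 to 39.46 kb. Those of Vmn2r65 to Vmn2r79 ran from 30.64 to 548.9 kb, beside members of 9.086 to 41.5 kb. The counts were not matched for length.

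Tall peaks were found in 9 of the 12 clusters. Their density was highest, among clusters over 1 Mb, in Vmn2r65 to Vmn2r79, at 3.34 per Mb (1.34 to 6.88), and lowest in Vmn2r90 to Vmn2r110, at 1.38 (0.377 to 3.54). The tallest peak of a cluster lay in a gap in 9 clusters and in a member in 3. On chromosome 3 it lay between Vmn2r6 and Vmn2r7, over the pseudogene Vmn2r-ps11, with 84 tags. On chromosome 5 it lay between Vmn2r12 and Vmn2r13, with 75 tags, and on chromosome 6 between Vmn2r22 and Vmn2r23, with 79.5 tags. On chromosome 14 it lay between Vmn2r88 and Vmn2r89, with 65 tags, and in the cluster of Vmn2r111 to Vmn2r117 between Vmn2r112 and Vmn2r113, with 61.5 tags. The clusters with no tall peak were short: Vmn2r53 to Vmn2r56, Vmn2r84 to Vmn2r87, where Vmn2r87 held the tallest at 21.5 tags, and Vmn2r80 to Vmn2r83, where a gap peak between Vmn2r82 and Vmn2r83 held 44.5 tags. For the first of these, the second and the third, the interval of a count of 0 reached 24.3, 33.1 and 10.7 tall peaks per Mb, so a lower density of tall peaks was not detectable at this length.

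Against the 1 Mb on either side, 5 of the 12 clusters had more peaks per Mb and 6 had more tall ones. The widest differences went both ways. The cluster of Vmn2r65 to Vmn2r79 had 14.8 peaks per Mb (10 to 21) and its flanks 7.5, and Vmn2r57 to Vmn2r126 had 21.2 (14.8 to 29.5) and 21 peaks in the 2 Mb of its flanks. The cluster of Vmn2r80 to Vmn2r83 had 17.5 (6.41 to 38) and flanks of 82.5, and Vmn2r19 to Vmn2r27 had 13 (6.71 to 22.7) and flanks of 33.5. Flanking densities ran from 7.5 to 82.5 per Mb and cluster densities from 10.9 to 26.9.

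**Figure D3:**
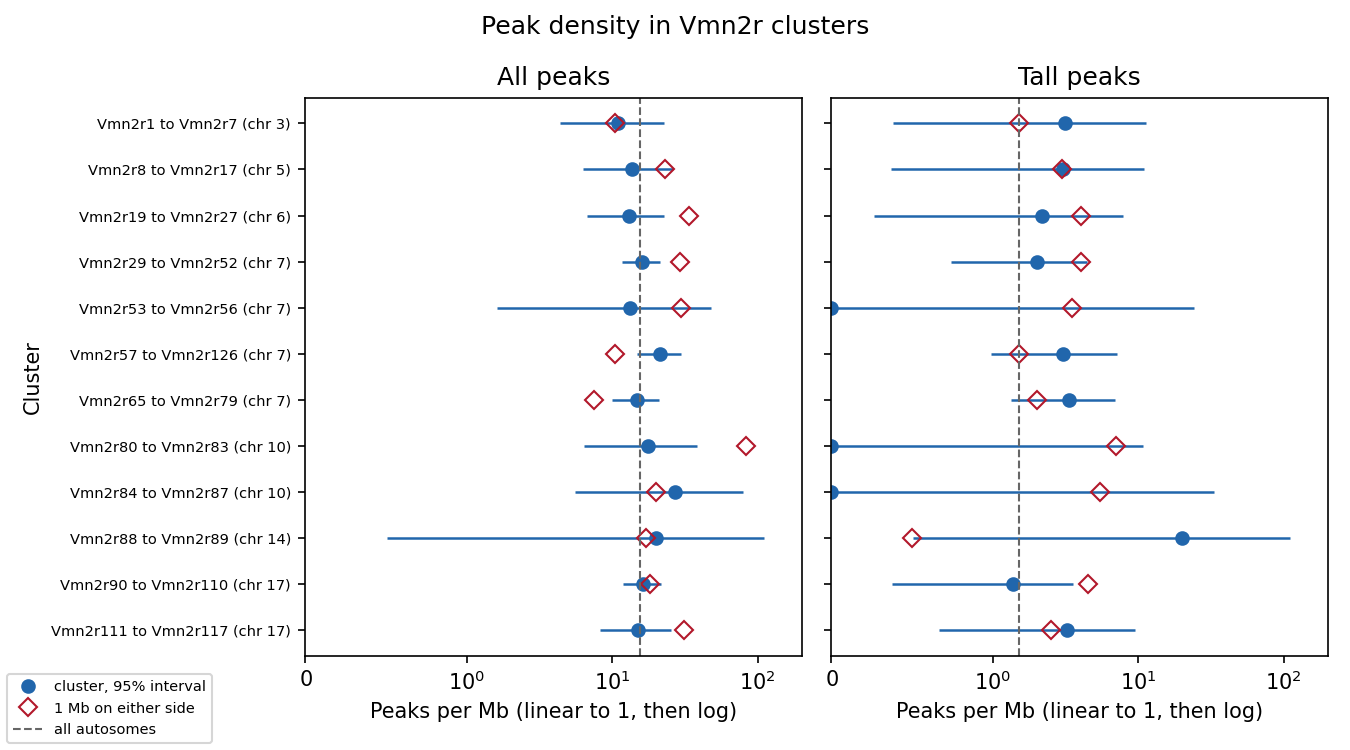
Peaks per Mb (left) and tall peaks per Mb (right) in each of the 12 clusters (points, exact Poisson 95% interval), in the 1 Mb on either side (diamonds) and on all autosomes (dashed line), on an axis that is linear to 1 and logarithmic beyond. The autosomal line stands at 15.4 peaks per Mb, and lies inside the interval of each cluster in the left panel.

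Tall and weak peaks of the clusters were then compared. Of the 214 peaks, 32 were tall (15%, 10.46 to 20.4), 105 middle and 77 weak (36%, 29.6 to 42.8). On all autosomes 9.83% were tall and 49.3% weak, and outside protein-coding genes 13% and 45.1%. The median normalized tag count was 21.75 in the clusters, 17.3 on all autosomes and 18.3 outside protein-coding genes. The share of weak peaks in the clusters lay below both, and the share of tall ones lay above that of the autosomes and could not be told from that outside genes. Control tags per kb of peak were 1.77 in the clusters and 1.95 on all autosomes.

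Tall peaks were also wide and weak ones narrow, but the classes were cut on tags summed over the peak. A wider peak can hold more ChIP and control tags, so these contrasts are partly built into the classes. The 32 tall peaks had a median width of 1979 bp, 74.75 tags and 4 control tags, and none had the control at its lowest value. The 77 weak ones had a median width of 500 bp, 11 tags and 0.5 control tag, and for 52 of them (67.5%) the control stood at its lowest value. The median folds over control, 13.78 and 12.32, were close. On all autosomes the corresponding widths were 1937 and 500 bp and the folds 11.4 and 13. Member spans held 5 of the 32 tall peaks and 7 of the 77 weak ones. Of the tall peaks, 26 lay over 5 kb from any member, and the median distance of all 32 was 27.1 kb, up to 256 kb.

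**Figure D4:**
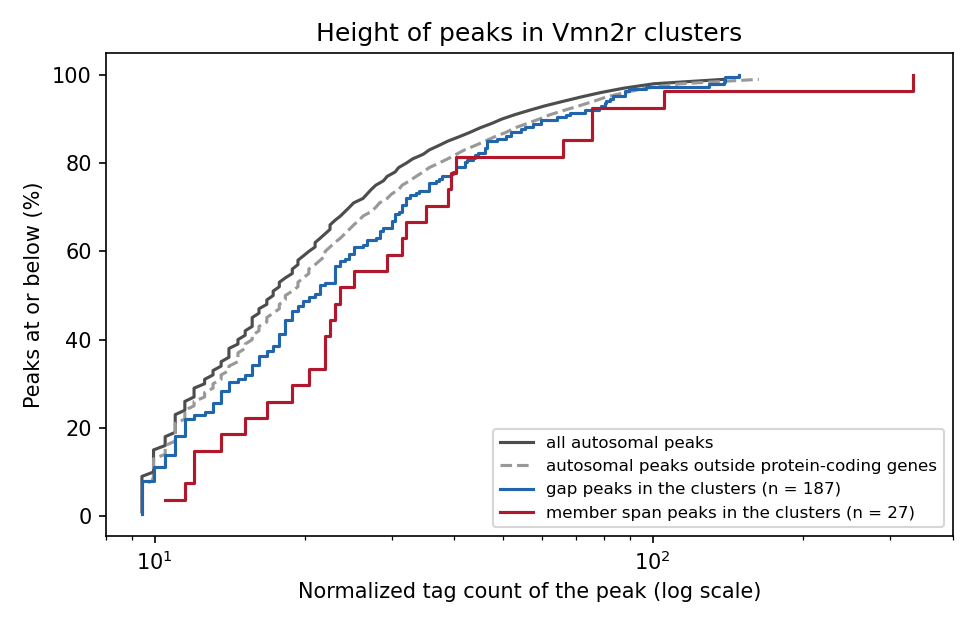
Percent of peaks at or below each normalized tag count (log scale) for peaks centred in gaps (187) and member spans (27) of the clusters, for all autosomal peaks and for those outside protein-coding genes. The cluster curves lie to the right of the autosomal ones through the middle of the range, with medians of 21.75 for the clusters together and 17.3 for the autosomes.

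Other chemoreceptor families had peaks at lower shares still, all below the 56.8% of all protein-coding genes. For the trace amine-associated receptors the interval overlapped that of the members, 18.1 to 34.4%. The vomeronasal type 1 receptors, which sit in apical neurons of the same organ and have short genes, had a peak at 27 of 228 (11.8%, 7.95 to 16.8). Olfactory receptors had one at 87 of 1099 (7.92%, 6.39 to 9.67), bitter taste receptors at 0 of 35 (up to 10%) and trace amine-associated receptors at 0 of 15 (up to 21.8%). Their median spans were 0.924, 0.951, 0.936 and 1.05 kb, against 24.74 kb for the members, and a longer gene can hold more peaks. A peak touched the gene itself in 2 of 228 type 1 receptors (0.877%) and 18 of 1099 olfactory receptors (1.64%). The same share was 16.5% of members and 47.6% of all protein-coding genes. The 128 Vmn2r pseudogenes, which lie in and around the same clusters with a median span of 3.22 kb, had a peak at 45 (35.2%, 26.9 to 44.1), against 22.3% of all autosomal pseudogenes. They had a tall one at 14 (10.9%), against 3.55%. With the peak required to touch the pseudogene itself the order turned, with 12 of 128 (9.38%) against 11.4% of all, whose median span is shorter at 0.922 kb. No comparison at matched length was made.

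Class C receptors outside the Vmn2r genes belong to the same receptor class but are single genes. A peak was found at 16 of 19 (84.2%, 60.4 to 96.6), against 56.8% of all protein-coding genes. Their median span was 23.2 kb, against 24.74 kb for the members, but some, such as Grm7 and Grm8, are longer than any member. Length was not matched here. Tall ones lay at Grm5, a metabotropic glutamate receptor, with 77.5 tags against 4 in the control, and at Gprc5c, an orphan receptor, with 58.5 tags against 3. No peak was found at Casr, the calcium-sensing receptor, at Gprc6a or at Gprc5d. Of 23 genes of vomeronasal signalling, 9 had a peak (39.1%, 19.7 to 61.5), against 56.8% of all protein-coding genes. The median span of the 23 was 3.39 kb. The 9 included Gnao1 and Trpc2, the G protein subunit and the channel downstream of these receptors, with 24 and 21 tags in their tallest peaks. The one tall peak (4.35%, against 6.68%) lay at Ano2, a calcium-activated chloride channel, with 58.5 tags against 1 in the control. The 9 H2-M genes of the list, whose products are made in the same basal neurons, had none, and these genes are short.

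**Figure D5:**
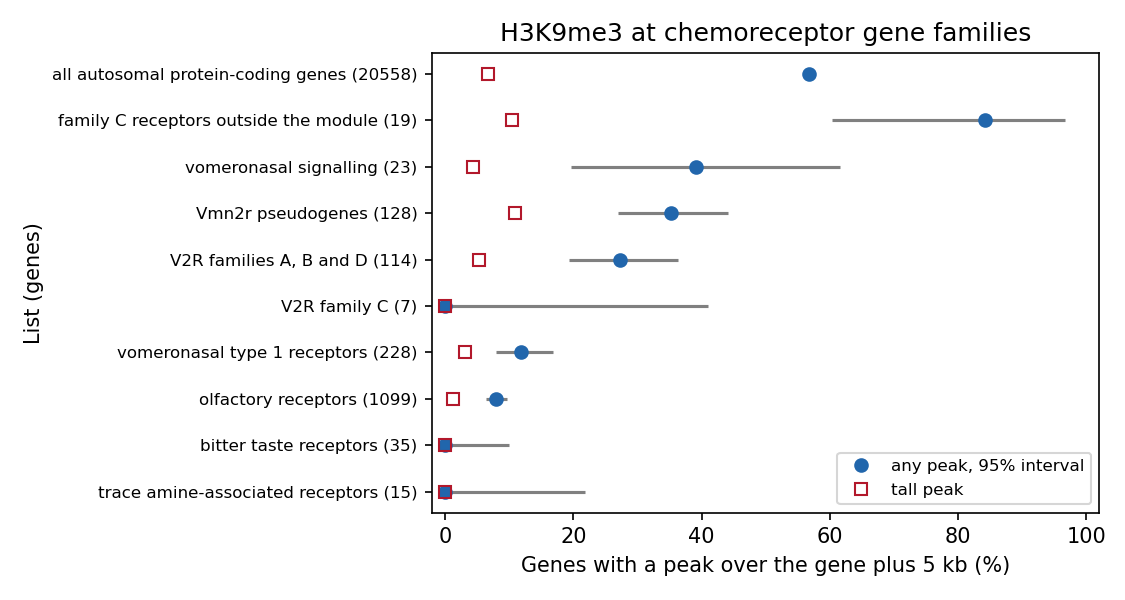
Percent of genes with a peak over the gene plus 5 kb (points, exact Clopper-Pearson 95% interval) and with a tall peak (squares) in each list, with the number of genes in brackets. The members of families A, B and D stand at 27.2%, between the Vmn2r pseudogenes at 35.2% and the vomeronasal type 1 receptors at 11.8%, and all protein-coding genes at 56.8%.

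The whole list held 40119 peaks, 37904 of them on the 19 autosomes, with a median of 16.5 tags per autosomal peak. Of 5 markers of intestinal stem cells, 4 had a peak (80%, 28.4 to 99.5), Lgr5 among them and Ascl2 with a tall one. All 3 markers of vomeronasal neurons had a peak (29.2 to 100). None was found at 3 immune markers (0 to 70.8). Over all autosomal protein-coding genes 56.8% had a peak, a share inside each of these intervals, and 6.68% had a tall one. A peak list carries no expression, so the cell label was not tested with it.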

How the data were processed

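One H3K9me3 ChIP library and 1 control library of sorted mouse intestinal stem cells were used. Per the submitters' processing notes, the authors used Bowtie2 2.2.8 and HOMER 4.10.1 on GRCm38 (mm10), with options that the labels do not state. Per the file headers, the deposited normalized tag counts and control tags are coverage signals, the score is the caller's, the fold is the ratio of scaled ChIP tags to control tags (no value under 4), and the p-value of each peak is the caller's (at most 8.32e-05). Low normalized tag counts were spaced by 0.524, all (100%) at whole multiples to within 0.1. The step was assumed to be 0.5 tag, so 1 tag was taken as 1.048. That assumption was not tested, and tags and their intervals depend on it. Tags in steps of 0.5 are not whole counts, so the exact Poisson formula is approximate for them.

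Genes came from a RefSeq table of GRCm38.p6 with 49997 genes, of which 402 with scaffold or no nuclear coordinates were left out. It gives spans without exons. Sequence came from RefSeq's start windows alone. Start windows were aligned in pairs with Biopython 1.88. Counts were tested on simulated peaks. Text names every member with a tall peak, the 10 members with most peaks (ties by symbol), the tallest peak of each cluster, the 5 gaps with most peaks and list genes with a tall peak. Other names were chosen after their values were seen. Members and lists were chosen with earlier results of these data known. Alternatives changed windows, filters, classes and cluster limits.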

Additional observations from a re-analysis of the deposited data

How the results depend on the processing

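Counts of members moved with the window and densities with the fold filter. Members with a peak, 31 of 121, became 20 with the gene span alone and 82 with 25 kb on either side (all protein-coding genes 47.6% and 77.4%), 15 of 69 without chromosome 7 and 76 of 250 with Vmn2r pseudogenes added. Members with a tall peak, 6, became 19 with 25 kb (15.7%, all protein-coding genes 13%, so the order turned). They became 2 of 69 without chromosome 7 and 20 of 250 with pseudogenes. With the top 25% as tall they were 14 (11.6%), and with the top 10% by the authors' score 10 (8.26%). Without chromosome 7, with pseudogenes and with these 2 classes, shares over all genes were not computed. The order of members and other genes is not known there. Peaks per Mb in the gaps, 18.1, became 14.8 at a fold of at least 8 and 15.5 with peaks within 5 kb merged (autosomes 12.2 and 12.4), and 24 with clusters joined over 2 Mb, which adds long stretches with no member. The tall share in the clusters, 15%, became 9.35% with the top 5% and 37.9% with the top 25% as tall, where autosomes had 4.88% and 24.9%. Among clusters, Vmn2r29 to Vmn2r52 (15.9 per Mb) became 11.1 at a fold of at least 8 and 21.3 with clusters joined over 2 Mb, and Vmn2r90 to Vmn2r110 (16.2) became 11.8 at that fold. The other 78 values of counts, shares and densities stayed within 1.5 times or within the interval. Vmn2r104 had no peak at a fold of at least 8 and Vmn2r29 kept only 1 of 3, without its tallest. No paired analysis was possible because each group is 1 library and no test was made.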
